A study of Drosophila melanogaster with 9 samples.

Results

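The peptidoglycan recognition proteins (PGRPs) were followed in heads of adult male flies carrying the *dLmo* gain-of-function allele *BxJ* or the loss-of-function allele *EP1306*, and in heads of the control *w;iso*, a white-eyed *w* stock isogenic for chromosomes II and III to which both mutant lines had been outcrossed. Each genotype was hybridized to 3 Affymetrix Drosophila 2.0 arrays, 9 in all. The flies were untreated and 2 to 3 days old per the labels. The design text describes 3 pooled groups of 200 heads for each genotype, whereas the labels of the samples describe a single pool of 600 flies whose RNA was divided in 3. Under the second description the spread between arrays is technical, and the p-values measure only that spread.

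The family was defined by name, as 10 genes, and its members were found through the gene symbols, synonyms and gene identifiers of the platform annotation. Of the 10, 6 had a probe set of their own (short oligonucleotides matched to a transcript, read together as 1 intensity), against 11982 genes with such a probe set on the whole array. These were *PGRP-LE*, *PGRP-SB1*, *PGRP-SC2*, *PGRP-LB*, *PGRP-LA* and *PGRP-LF*, with 1 probe set each. *PGRP-LD* shared its probe set with the neighbouring gene *Pmi*. No probe set of *PGRP-SA*, *PGRP-SD* or *PGRP-LC* was named in the annotation used here, so these 3 sensors were not analysed here. The comparison of sensors with amidases therefore rested on 1 sensor and 3 amidases.

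PGRPs bind peptidoglycan, the polymer of bacterial cell walls, and in flies they stand at the entry of the Toll and Imd pathways, which switch on antimicrobial peptide genes through NF-kappaB factors. *PGRP-SA* and *PGRP-SD* are secreted sensors of the Toll pathway, *PGRP-LC* is the transmembrane receptor of the Imd pathway, and *PGRP-LE* is its intracellular sensor. Other family members have kept the enzyme activity of the fold, an amidase that cuts peptidoglycan and so removes the ligand of the sensors. *PGRP-LB* and *PGRP-SC2* are amidases known to damp the Imd response, and *PGRP-SB1* is a secreted amidase whose transcript is induced by infection. *PGRP-LF* lacks enzyme activity and is a membrane-bound decoy that holds *PGRP-LC* back, and *PGRP-LA* lacks it too and is known to modulate the Imd pathway in epithelia.

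The head samples carried the markers of head tissue on every array. The mean log2 level of 6 measured photoreceptor genes was 12.96 to 13.11 in *BxJ*, 13.11 to 13.21 in *EP1306* and 13.09 to 13.22 in the control, and that of 5 neuronal genes was 8.27 to 8.29, 8.40 to 8.47 and 8.37 to 8.76 in the same order. Levels are given throughout as log2 of the deposited intensity plus 16. At an unadjusted p under 0.05 by limma, 2 of the 5 neuronal and 3 of the 6 photoreceptor genes were lower in *BxJ*, as were 8.73% of all probe sets. In *EP1306* 1 and 0 were lower, against 6.38%. None passed an adjusted p of 0.05 in either mutant, as 0.288% of all probe sets did in *BxJ* and 1.14% in *EP1306*. Transcripts of the male accessory gland and of the midgut were uneven between arrays. The 12 measured accessory gland genes averaged 6.21 to 8.16 in *BxJ*, 4.80 to 6.44 in *EP1306* and 4.77 to 5.97 in the control, and the 11 measured midgut genes averaged 5.35 to 6.13, 4.74 to 4.85 and 4.80 to 6.15. Hybridization spike-in controls, which are added to each sample in the same amount, read lower in the mutants, at 7.72 to 8.68 in *BxJ* and 7.98 to 8.88 in *EP1306*, against 8.93 to 10.33 in the control. In RNA of whole heads, a smaller number of cells of a type and less RNA in each such cell cannot be told apart.

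Among the family members, *PGRP-SB1* had the smallest F-test p over the genotypes. Its intensity was 4670, 4203 and 3415 on the *BxJ* arrays, 2902, 2093 and 2187 on the *EP1306* arrays, and 2187, 1396 and 1333 on the control arrays. Every *BxJ* array lay above every *EP1306* array and every control array, while the lower *EP1306* arrays overlapped with the highest control array. On the log2 scale the means were 11.99 ± 0.23 in *BxJ*, 11.22 ± 0.25 in *EP1306* and 10.66 ± 0.39 in the control (SD, n = 3 each). *PGRP-SB1* differed over the 3 genotypes (limma moderated F-test, adjusted p = 0.0469), a call made for 1.49% of all 18769 probe sets tested. An exact permutation of the F statistic over 280 splits of the 9 arrays gave p = 0.00714, which is not adjusted for the number of members or probe sets.

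In *BxJ* heads *PGRP-SB1* was at 2.53 times its control level. The log2 difference was 1.34 (standard error 0.21, 95% interval 0.85 to 1.82), which narrowly missed the threshold of 0.05 (limma, adjusted p = 0.0632). In *EP1306* heads it was at 1.48 times the control level, a log2 difference of 0.56 (95% interval 0.08 to 1.05) that did not pass the test (limma, adjusted p = 0.406). Between the mutants, the log2 difference of *EP1306* minus *BxJ* was -0.77 (95% interval -1.26 to -0.29, adjusted p = 0.206 from limma). The exact permutation p was 0.1 for *BxJ* against the control and for *EP1306* against *BxJ*, the smallest that 3 arrays against 3 allow. The 2 comparisons with the control share the same control arrays and are not independent.

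**Figure D1:**
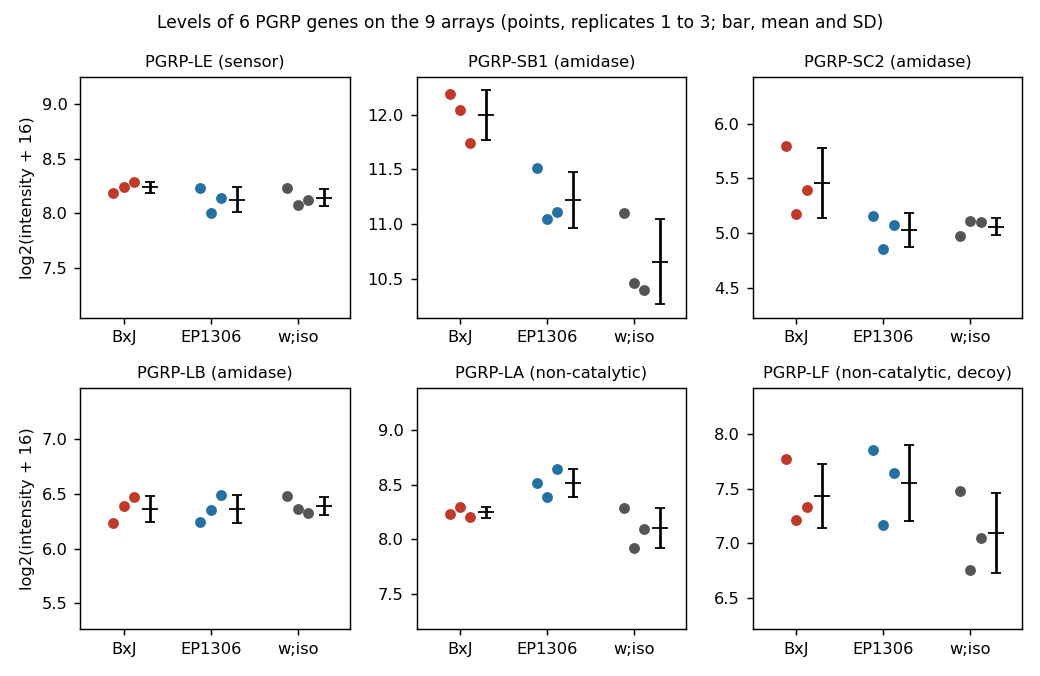
Levels of the 6 PGRP genes with a probe set of their own, as log2 of the intensity plus 16, on the *BxJ*, *EP1306* and *w;iso* arrays (points, replicates 1 to 3 from left to right; bars, mean and SD, n = 3). Each panel spans the same 2.2 log2 units, and the groups separate most for *PGRP-SB1*, whose 3 *BxJ* arrays (11.74 to 12.19) sit above the 3 control arrays (10.40 to 11.10).

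The F-test call of *PGRP-SB1* was sensitive to single arrays. It was kept in 1 of the 9 fits that left out an array, the fit without control replicate 1 (adjusted p = 0.0138), and in the other fits the adjusted p was 0.0585 (without *EP1306* replicate 1) to 0.164 (without *BxJ* replicate 1). The log2 difference in *BxJ* was 1.21 to 1.56 over these fits. It passed the test without control replicate 1 (limma, adjusted p = 0.0180), the control array on which *PGRP-SB1* was highest. Replicate 1 was the highest array for *PGRP-SB1* in all 3 genotypes, which was so for 4.72% of all probe sets.

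Markers of other tissues were set beside *PGRP-SB1*. The fat body produces most of the secreted immune proteins of the fly, and its 8 measured markers averaged 9.89 to 9.96 in *BxJ*, 9.71 to 9.82 in *EP1306* and 9.54 to 9.93 in the control. None of the 8 passed limma's test in either mutant, as 0.288% of all probe sets did in *BxJ* and 1.14% in *EP1306*. At an unadjusted p under 0.05 there were 1 in *BxJ* and 1 in *EP1306*, against 12.1% and 9.8% of all probe sets. The widest difference of the 8 was that of *Lsp2*, a larval serum protein named here after its values were seen, with 1.21 in *BxJ* (limma, adjusted p = 0.345). The fat body mean was highest among the controls on control replicate 1, the array where *PGRP-SB1* was highest too. This was not particular to the fat body. The means of the blood cell markers (7.51) and of the glial markers (9.77) were also highest on that control array. Those of the neuronal, photoreceptor, midgut and accessory gland genes were lowest there. The part of the fat body in the result was not tested. The 10 measured markers of hemocytes, the blood cells, averaged 7.38 to 7.55 in *BxJ*, 7.30 to 7.45 in *EP1306* and 7.29 to 7.51 in the control. None of them passed limma's test in either mutant, against the same shares of all probe sets. At an unadjusted p under 0.05 there were 1 in *BxJ* and 3 in *EP1306*, against 12.1% and 9.8%. The part of hemocytes in the result was not tested. Midgut transcripts averaged 5.78 in *BxJ*, 4.79 in *EP1306* and 5.32 in the control. They were highest on control replicate 2 (6.15), where *PGRP-SB1* was at 10.46 and *PGRP-SC2* at 5.11, and within *EP1306* on replicate 1 (4.85), where *PGRP-SB1* was at 11.51, the highest of that genotype. Accessory gland transcripts averaged 7.04 in *BxJ*, 5.39 in *EP1306* and 5.22 in the control, so that *BxJ* was the highest genotype for them as for *PGRP-SB1*. They were highest on *BxJ* replicate 3 (8.16), where *PGRP-SB1* was at 11.74, the lowest of the *BxJ* arrays, and within *EP1306* on replicate 1 (6.44). The part of either tissue in the result was not tested. Without the array of each genotype that was highest in midgut markers, the log2 difference of *PGRP-SB1* in *BxJ* was 1.37 (limma, adjusted p = 0.138). With the spike-in level in the fit it was 0.82 (limma, adjusted p = 0.556). That level was itself lower on every mutant array than on every control array, so the fit cannot fully tell it apart from genotype. The part of the spike-in difference in the result was not tested further.

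**Figure D2:**
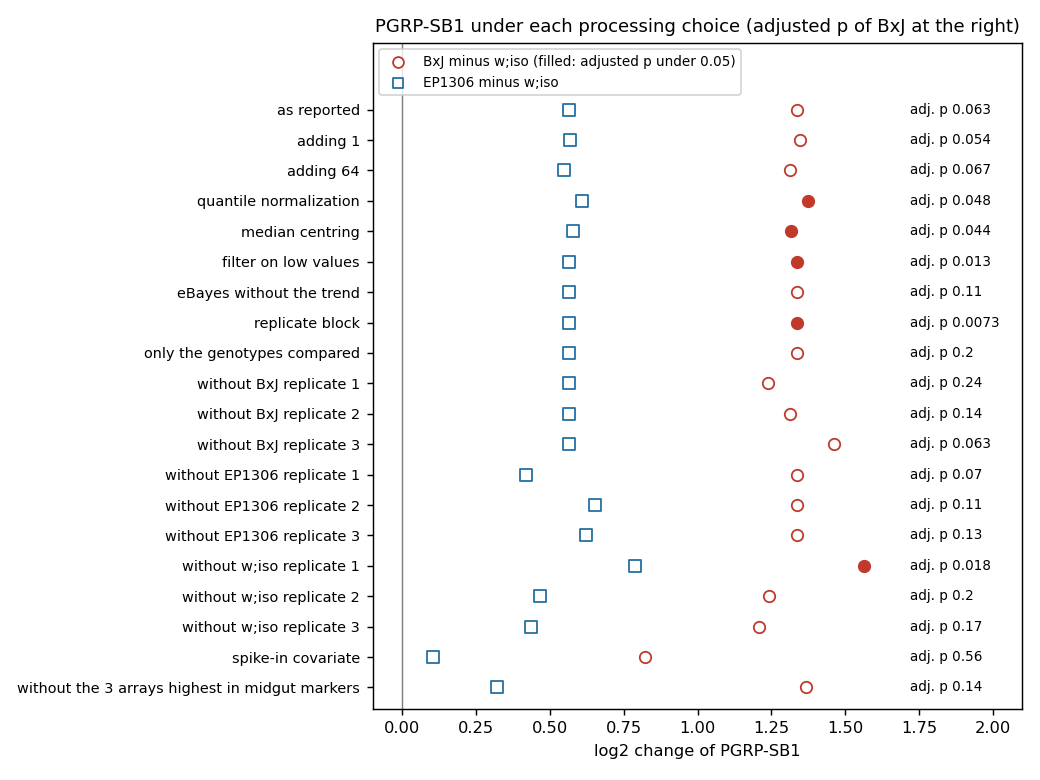
Log2 change of *PGRP-SB1* in *BxJ* (circles) and *EP1306* (squares) against the control in the fit as reported and under each alternative fitted with limma, with the adjusted p for *BxJ* at the right; filled symbols have an adjusted p under 0.05. The change in *BxJ* lies between 0.82 and 1.56 and that in *EP1306* between 0.11 and 0.79, and the *BxJ* change is past the threshold in 5 of the 19 alternatives drawn.

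*PGRP-SC2*, a secreted amidase that is prominent in the gut, was read at a low signal. Its intensity was 39.7, 20.1 and 26.0 on the *BxJ* arrays, 19.6, 12.9 and 17.7 on the *EP1306* arrays, and 15.3, 18.4 and 18.3 on the control arrays. The *BxJ* arrays lay above the arrays of both other genotypes, with *BxJ* replicate 1 standing apart, while *EP1306* and the control overlapped. The median intensity of all probe sets was 15.9 to 17.8 on an array, so the number added before the log2 weighs on this gene. The log2 difference in *BxJ* was 0.40 (95% interval 0.05 to 0.75) and did not pass the test (limma, adjusted p = 0.386). It was 0.64 with 1 added in place of 16, 0.18 with 64 added, and 0.22 without *BxJ* replicate 1. In *EP1306* the log2 difference was -0.03 (95% interval -0.38 to 0.32, adjusted p = 0.965 from limma).

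*PGRP-LB*, the amidase whose loss is known to prolong the Imd response, was at nearly equal levels in the 3 genotypes. Its intensity was 59.5, 67.8 and 72.7 in *BxJ*, 59.6, 66.1 and 74.2 in *EP1306*, and 73.3, 66.6 and 64.1 in the control. All 3 groups overlapped. The log2 differences were -0.02 in *BxJ* (95% interval -0.28 to 0.23) and -0.03 in *EP1306* (95% interval -0.28 to 0.23), with adjusted p-values of 0.924 and 0.957 from limma. Neither interval reaches the 0.85 that bounds the *PGRP-SB1* difference in *BxJ* from below.

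*PGRP-LE* was the only sensor measured. It lies on the X chromosome, like *dLmo* itself, whereas the other measured members are on the autosomes for which the control stock is isogenic. Its intensity was 276, 286 and 297 in *BxJ*, 285, 240 and 266 in *EP1306*, and 285, 254 and 263 in the control. The arrays of the 3 genotypes overlapped. *BxJ* heads differed from the control by 0.10 on the log2 scale, with a 95% interval of -0.08 to 0.27, and *EP1306* heads by -0.02, with one of -0.20 to 0.16. Neither passed limma's test (adjusted p = 0.557 and 0.952).

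**Figure D3:**
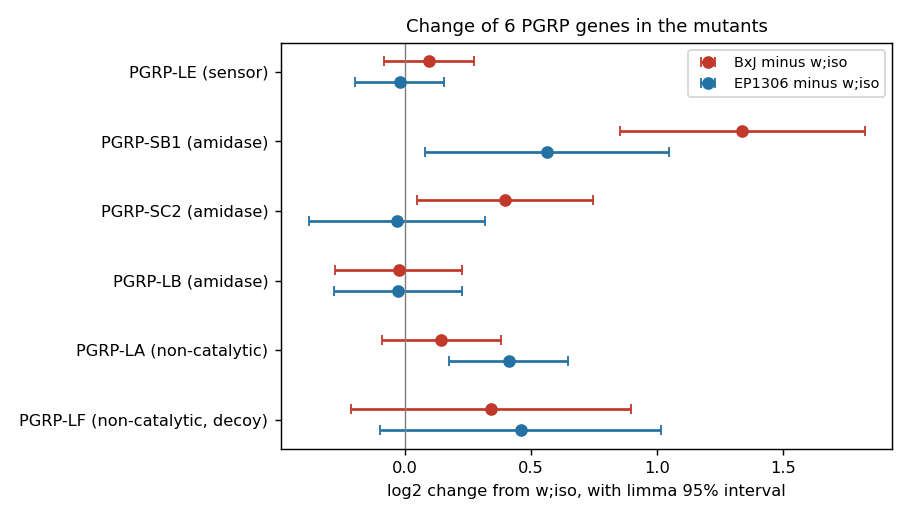
Log2 change from the control with its 95% interval from limma for the 6 PGRP genes, in *BxJ* (upper of each pair) and *EP1306* (lower). The interval of *PGRP-SB1* in *BxJ*, 0.85 to 1.82, lies apart from that of the sensor *PGRP-LE*, -0.08 to 0.27. That of the amidase *PGRP-SC2* in *BxJ*, 0.05 to 0.75, overlaps the interval of *PGRP-LE*, and those of *PGRP-LB* are centred near 0. The intervals are not adjusted for the number of genes, and a difference between genes was not tested.

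*PGRP-LA* and *PGRP-LF* lie on chromosome arm 3L on either side of the gene of the receptor *PGRP-LC*, with no other protein-coding gene listed between (assembly Release 6). *PGRP-LA* had intensities of 285, 299 and 279 in *BxJ*, 350, 318 and 383 in *EP1306*, and 297, 227 and 257 in the control. Here the *EP1306* arrays were the high ones, each of them above every array of *BxJ* and the control, and *BxJ* overlapped with the control. The log2 difference in *EP1306* was 0.41 (standard error 0.10, 95% interval 0.18 to 0.65, adjusted p = 0.144 from limma), or 33.1% above the control, and that in *BxJ* was 0.14 (95% interval -0.09 to 0.38, adjusted p = 0.519 from limma). With quantile normalization between arrays the *EP1306* difference was 0.43 and passed the test (limma, adjusted p = 0.0354), whereas with each array centred on its median it was 0.43 and did not (limma, adjusted p = 0.166). The spike-in covariate gave 0.21 in *EP1306* and -0.08 in *BxJ*, and neither passed the test. The *BxJ* difference was 0.06 without control replicate 2 and 0.24 without control replicate 1.

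*PGRP-LF* varied widely between the arrays of each genotype. Its intensity was 202, 132 and 145 in *BxJ*, 215, 128 and 183 in *EP1306*, and 162, 91.8 and 117 in the control. Replicate 1 was the highest and replicate 2 the lowest in all 3 genotypes, and the groups overlapped. *BxJ* heads lay 0.34 above the control on the log2 scale, with a 95% interval of -0.21 to 0.90, and *EP1306* heads 0.46 above it, with one of -0.10 to 1.02. Neither passed limma's test (adjusted p = 0.517 and 0.625). Without control replicate 2 the differences were 0.17 in *BxJ* and 0.29 in *EP1306*, and without control replicate 1 they were 0.53 and 0.65. With *BxJ* replicate 1 left out the *BxJ* difference was 0.18. With the spike-in covariate both differences had the opposite sign, -0.32 in *BxJ* and -0.13 in *EP1306*, and neither passed the test.

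The lowest intensity on an array was 2.83 to 2.98, and 2 of the 3 probe sets that bear on the rest of the family read close to it. The probe set shared by *Pmi* and *PGRP-LD* was at 3.69 to 3.70 in *BxJ*, 3.64 to 3.79 in *EP1306* and 3.80 to 4.63 in the control, and cannot be assigned to either gene. Outside the 10 members, *PGRP-SB2*, the next protein-coding gene beside *PGRP-SB1*, was at 4.56 to 5.11 in *BxJ*, 4.57 to 4.89 in *EP1306* and 4.74 to 5.41 in the control. The third, common to *PGRP-SC1a* and *PGRP-SC1b*, a pair of amidase genes close to *PGRP-SC2*, was above the array medians, at 23.0 to 26.2, 21.6 to 23.2 and 23.5 to 43.8. The shared *PGRP-LD* probe set was below every control array in both mutants and that of *PGRP-SC1a* and *PGRP-SC1b* in *EP1306*, as were 27.6% of all probe sets in *BxJ* and 8.17% in *EP1306*. None of the 3 probe sets passed limma's test in either mutant (adjusted p = 0.457 to 0.740), and none reached an unadjusted p under 0.05 by limma or by the methods' t-test.

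Set against each other, sensors and amidases were compared by their changes from the control. The 3 amidases had log2 differences of 1.34, 0.40 and -0.02 in *BxJ*, with a median of 0.40, and of 0.56, -0.03 and -0.03 in *EP1306*, with a median of -0.03. The sensor *PGRP-LE* had 0.10 in *BxJ* and -0.02 in *EP1306*, and the 2 other non-catalytic members had medians of 0.24 in *BxJ* and 0.44 in *EP1306*. Over all 18769 probe sets tested the median difference was -0.02 in *BxJ* and -0.01 in *EP1306*. Within the amidases the values were spread widely in *BxJ*, where the intervals of *PGRP-SB1* and *PGRP-LB* did not overlap and the median of the 3 is the value of *PGRP-SC2*. A difference between the classes was not tested.

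By limma 0 of the 6 members passed an adjusted p of 0.05 in *BxJ* against the control, where 0.288% of all probe sets did, and 0 of 6 in *EP1306* against the control, where 1.14% did. Between *EP1306* and *BxJ* it was 0 of 6, against 1.23%. At an unadjusted p under 0.05 by limma, 2 of the 6 were higher in *BxJ* (*PGRP-SB1* and *PGRP-SC2*), as were 3.35% of all probe sets, and 0 were lower, as were 8.73%. In *EP1306* 2 were higher (*PGRP-SB1* and *PGRP-LA*) and 0 lower, against 3.43% and 6.38%. In *EP1306* against *BxJ* 1 was higher (*PGRP-LA*) and 2 lower (*PGRP-SB1* and *PGRP-SC2*), against 5.25% and 4.96%. The F-test over the genotypes was passed by 1 of the 6 at an adjusted p under 0.05, as by 1.49% of all probe sets. An unadjusted p under 0.05 in that test was found for 3 of the 6, as for 11.9% of all probe sets. The methods' t-test gave an unadjusted p under 0.05 to 1 of 6 in *BxJ*, 1 of 6 in *EP1306* and 2 of 6 between the mutants, against 10.3%, 6.39% and 8.84% of all probe sets. After Benjamini-Hochberg adjustment it was 0 of 6 in each, where 0, 11 and 25 of all 18769 probe sets passed. With so few passing, 0 of 6 says little about the family. In 2 of the 6 all *BxJ* arrays were above all control arrays, as in 3.37% of all probe sets, and in 1 of the 6 all *EP1306* arrays were, as in 4.15%. In 1 of the 6 all *EP1306* arrays were above all *BxJ* arrays, as in 11.3%, and in 2 of the 6 below them, as in 6.1%.

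The other genes of the Toll and Imd pathways and their targets were described from lists. Of 18 measured genes of Toll signalling, 0 rose and 0 fell by limma in either mutant, where 0.288% (*BxJ*) and 1.14% (*EP1306*) of all probe sets were called. At an unadjusted p under 0.05 there were 1 in *BxJ* and 2 in *EP1306*, a level reached by 12.1% and 9.8% of all probe sets. The median log2 differences of the list were 0.01 in *BxJ* and 0.03 in *EP1306*. The smallest F-test p-values of that list belonged to *Myd88*, the adaptor of the Toll receptor, with differences of 0.16 in *BxJ* and -0.27 in *EP1306*, to *nec*, a serpin that restrains the Toll cascade, with 0.40 and 0.36, and to *GNBP3*, a sensor of fungal glucans, with 0.36 and 0.03. None of these 3 passed the F-test, with adjusted p-values of 0.151, 0.376 and 0.503. Of 13 measured genes of Imd signalling, 0 rose and 0 fell by limma in either mutant, against the same 0.288% and 1.14%. At an unadjusted p under 0.05 there were 4 in each, against the same 12.1% and 9.8%, and the medians were 0.02 and -0.03.

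In the Imd list *ben*, which encodes a ubiquitin-conjugating enzyme, differed over the genotypes (limma F-test, adjusted p = 0.0441). Its log2 level was 11.72, 11.79 and 11.91 in *BxJ*, 12.09, 12.18 and 12.18 in *EP1306* and 12.10, 12.27 and 12.18 in the control, so that the *BxJ* arrays were the low ones. *Uev1A*, which encodes the partner of such enzymes, had differences of -0.25 in *BxJ* and -0.16 in *EP1306* (limma F-test, adjusted p = 0.0732), and *casp*, a negative regulator of the pathway, -0.26 and -0.24 (adjusted p = 0.376).

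The antimicrobial peptides are the targets of both pathways. Of 6 measured, 2 rose in *BxJ* and 2 in *EP1306*, and 0 fell (limma). That threshold was passed in either direction by 0.288% and 1.14% of all probe sets. At an unadjusted p under 0.05 by limma there were 5 in *BxJ* and 3 in *EP1306*, against 12.1% and 9.8% of all probe sets. The 2 that rose in each mutant were *Drs*, encoding the antifungal drosomycin, and *DptB*, encoding a diptericin. Their log2 changes were 2.97 and 3.67 in *BxJ* and 3.05 and 2.46 in *EP1306*. *Def*, encoding an antibacterial defensin, had 0.69 in *BxJ* and 0.18 in *EP1306* (limma F-test, adjusted p = 0.0645). *Drs*, *DptB* and *PGRP-SB1* were all highest on replicate 1 among the controls, where *DptB* was at 7.70, against 6.66 and 6.37 on the other control arrays. Another of the measured peptides was lowest on that array, at 5.05 against 5.37 and 5.27. The mean of the Toll signalling genes was highest there too, at 8.27 against 8.05 and 8.03. How many of all probe sets were highest on that control array was not counted.

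**Figure D4:**
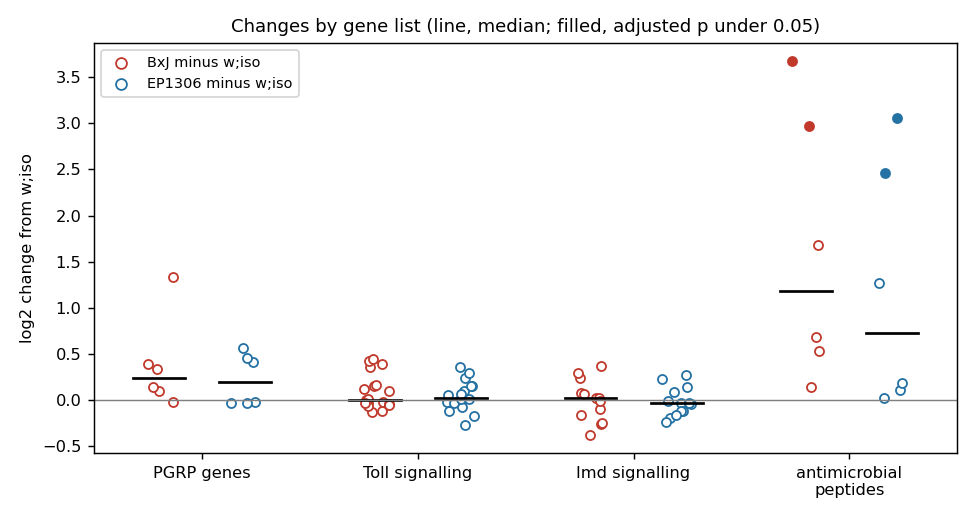
Log2 change from the control in *BxJ* (left of each pair) and *EP1306* (right) for the 6 PGRP genes, 18 Toll signalling genes, 13 Imd signalling genes and 6 antimicrobial peptide genes, with the median as a line and filled points for an adjusted p under 0.05 (limma). Medians of the signalling lists lie between -0.03 and 0.03, those of the PGRP genes at 0.24 and 0.20, and those of the peptides at 1.18 and 0.72.

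The genes whose levels ran most like those of *PGRP-SB1* were found as the smallest root mean square difference of centred log2 levels over the 9 arrays, among 13646 other probe sets that name 1 gene. They were *CG34166* (0.187), *CtsL3* (0.210), *Sodh1* (0.225), *CG10550* (0.258) and *Had1* (0.269), while the centred levels of *PGRP-SB1* itself had a root mean square of 0.601. *CG34166* averaged 9.87 in *BxJ*, 9.06 in *EP1306* and 8.22 in the control, the same order as *PGRP-SB1*. *Sodh1*, which encodes a sorbitol dehydrogenase, averaged 9.97, 9.58 and 8.78. For *CG10550* and *Had1* the *EP1306* mean was near the control, with log2 differences of 0.10 and 0.14, against 1.00 and 1.46 in *BxJ*. That of *PGRP-SB1* in *EP1306* was 0.56 and did not pass the test (limma, adjusted p = 0.406). A difference between these genes and *PGRP-SB1* was not tested. All 5 were chosen for their likeness to it on these same arrays, so their order of genotypes and their F-test results are no separate evidence. Of the 5, *CG10550* and *Had1* passed the F-test over the genotypes (limma, adjusted p = 0.00377 and 0.0364), and *CG34166*, *CtsL3* and *Sodh1* did not (limma, adjusted p = 0.083, 0.379 and 0.296). *Had1* lies on the X chromosome, which is not among the chromosomes for which the control stock is isogenic.

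**Figure D5:**
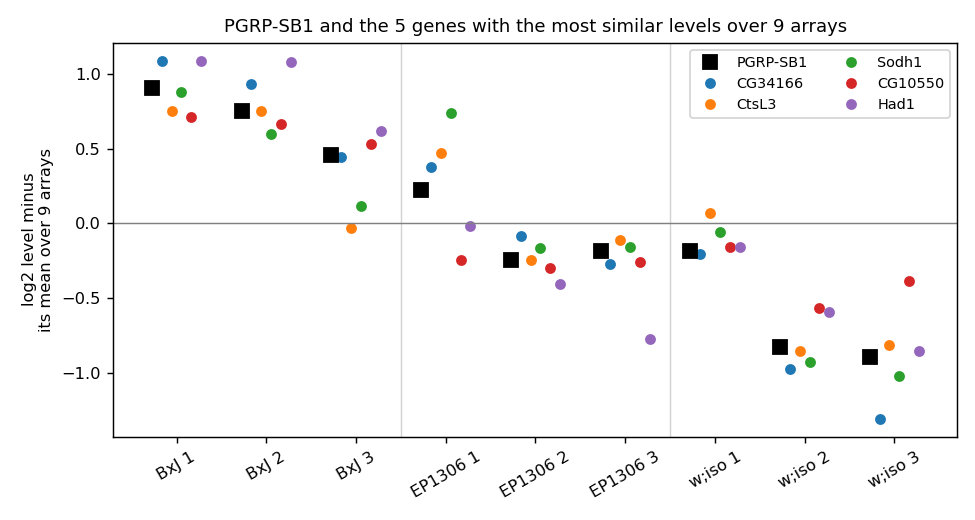
Log2 level minus its mean over the 9 arrays for *PGRP-SB1* (black squares) and the 5 genes with the most similar levels (circles), for each replicate of *BxJ*, *EP1306* and *w;iso*. The genes were chosen for this similarity, and all 6 average above 0 in *BxJ* and below 0 in the controls.

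For the sensor *PGRP-LE*, whose centred levels had a root mean square of only 0.0873, the same measure named *Sc2* (0.0414), *Clc*, the clathrin light chain (0.0476), *sp3* (0.0485), *CG31126* (0.0487) and *Akap200*, an anchor protein for protein kinase A (0.0490). None of these 5 passed the F-test, with adjusted p-values from limma of 0.558 to 0.761. They were chosen for their likeness to *PGRP-LE*, which did not pass it either, on these same arrays. This outcome therefore followed largely from the choice.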

How the data were processed

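Total RNA of adult male heads was hybridized to 9 Affymetrix Drosophila 2.0 arrays. The authors deposited 1 linear intensity for each of 18952 probe sets and array, for which the deposited notes name MAS5 without a version. The study's methods mention a normalization and subtraction of the averaged control before its tests, without details, and whether the deposited values carry it is not given. Arrays of 1 genotype correlated at 0.994 to 0.998 across probe sets.

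After 183 control probe sets had been set aside, log2 of the intensity plus 16 was taken. Array medians differed by 0.0818, under a limit of 0.1, so no scaling was applied. limma 3.58.1 in R 4.3.3 fitted 1 mean for each genotype (lmFit, contrasts.fit, eBayes with the intensity trend), with Benjamini-Hochberg adjustment over all 18769 probe sets and a threshold of 0.05. Recovery of known changes was checked on simulated data with independent noise for each probe set and array. The simulation held no effect shared by the probe sets of an array, so it does not bear on such effects here. The number of arrays limits the precision. Of these probe sets, 13647 name 1 gene in the annotation, 402 more than 1 and 4720 no gene.

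The text names all family members, up to 3 genes of each pathway list with the smallest F-test p, and 5 genes most like the sensor and the amidase with the smallest F-test p. Members, lists and tests were chosen with earlier results of these data known. Chromosome arms and neighbouring genes are those of assembly Release 6, with neighbours taken among protein-coding genes only. The alternatives were other added numbers, scalings, a filter on low values (a mean at or above the median of all probe sets), eBayes without the trend, a replicate block, a fit of the compared genotypes alone, leaving out arrays and the methods' t-test and ANOVA. A spike-in covariate and leaving out the arrays highest in midgut markers were added after seeing the data.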

Additional observations from a re-analysis of the deposited data

How the results depend on the processing

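Each member had 1 probe set, so averaging the probe sets of a gene changed nothing. Among the members, the F-test call of *PGRP-SB1* was kept in 6 of the 18 alternatives fitted with limma, whose adjusted p-values were 0.00614 to 0.259. It was lost in 8 of the 9 fits without 1 array, with 64 added (0.0537), without the intensity trend (0.0832), with the spike-in covariate (0.259) and without the 3 arrays highest in midgut markers (0.133). The methods' ANOVA gave 0.194 after Benjamini-Hochberg adjustment. The difference of *PGRP-SB1* in *BxJ* passed limma's test with quantile normalization (adjusted p = 0.0480), median centring (0.0445) and the filter on low values (0.0132), where fewer probe sets were tested. No call of a member changed its direction.

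The count of probe sets past the threshold was 113 in *BxJ*, 380 in *EP1306* and 431 by the F-test with the filter on low values. It was 15 in *BxJ*, 88 in *EP1306* and 153 between the mutants when only the genotypes compared were fitted. The methods' t-test and ANOVA gave 0, 11, 25 and 98 for *BxJ*, *EP1306*, *EP1306* against *BxJ* and all 3 genotypes after Benjamini-Hochberg adjustment, and 1936, 1199, 1660 and 1896 at an unadjusted p under 0.05. The spike-in covariate left 5 in *BxJ*, 46 in *EP1306* and 153 by the F-test. Without *BxJ* replicate 3, *EP1306* replicate 1 and control replicate 2, the arrays highest in midgut markers, there were 35 in *EP1306*, 130 between the mutants and 121 by the F-test. Leaving out 1 array gave 21 (without control replicate 2) to 127 (without control replicate 1) in *BxJ*, 103 to 247 in *EP1306*, 113 to 231 between the mutants and 154 to 326 by the F-test. Beyond the fits with fewer probe sets or arrays, the cause was not tested.

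The median log2 change of the amidases was 0.64 in *BxJ* and -0.70 in *EP1306* against *BxJ* with 1 added, 0.18 and -0.19 with 64 added, and -0.015 and -0.078 with *PGRP-SB2* and the shared *PGRP-SC1a* and *PGRP-SC1b* probe set included. It was 0.19 in *BxJ* with the spike-in covariate. Without 1 array it was 0.22 to 0.54 in *BxJ*, -0.05 to 0.06 in *EP1306* and -0.57 to -0.25 between the mutants. The change of the sensor *PGRP-LE* was then 0.06 to 0.14, -0.07 to 0.04 and -0.17 to -0.05, and without the 3 arrays highest in midgut markers it was -0.11 in *EP1306*.

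Arrays with the same replicate number did not deviate together (correlations of -0.376 to 0.289, and 2 of 9 arrays correlated best with their own number), so the numbers were not taken to pair the arrays. With the replicate number as a block, 70 probe sets were called in *BxJ*, 256 in *EP1306*, 228 between the mutants and 308 by the F-test, and the adjusted p of *PGRP-SB1* was 0.0073 in *BxJ*, 0.0250 in *EP1306* against *BxJ* and 0.00614 by the F-test (limma). The low signal of *PGRP-SC2*, *PGRP-LB*, *PGRP-SB2* and the shared probe sets limits what can be said of them.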
